A study of Mus musculus with 12 samples.

Results

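The genes described here encode the enzymes of the tricarboxylic acid (TCA) cycle and of pyruvate metabolism, with the mitochondrial carriers that move citrate and dicarboxylates. They were chosen by gene symbol, with earlier results of these data known. The paper had already shown the TCA cycle in its gene set enrichment analysis at D2, so the choice was not blind. The genes number 35, of which 34 had a probe set assigned to a single symbol among the 30077 genes measured. *Mpc2*, the partner of *Mpc1* in the mitochondrial pyruvate carrier, was not analysed here.

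RNA came from 3T3-L1 cells, a mouse preadipocyte line that stores lipid after hormonal induction. The inducers were 1 µM dexamethasone, 500 µM IBMX and 1 µg/mL insulin, and all 4 groups were induced. Cells received 100 nM of Ctrl-siRNA or of Paral1-siRNA, against the long non-coding RNA *Paral1*, either at D0 with collection at D2, or at D7 with collection at D9. Each group held 3 arrays, experiments 1 to 3 at D2 and 4 to 6 at D9, and each experiment gave 1 array of each siRNA. The D9 cells were detached with trypsin before their transfection, and no experiment held both days. Day, stage, set of experiments and transfection procedure can therefore not be told apart. *Paral1* itself was not analysed here, and whether its RNA was reduced in the libraries labelled Paral1-siRNA was not checked. The labelled reagent is the one listed as Paral1/2-siRNA in the methods, although the paper says that Paral1/1-siRNA was chosen.

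Pyruvate from glycolysis enters mitochondria through a carrier and is converted either to acetyl-CoA by the pyruvate dehydrogenase complex or to oxaloacetate by pyruvate carboxylase. Citrate synthase joins both products, and the cycle oxidises citrate back to oxaloacetate. In white adipocytes much citrate leaves mitochondria, is cleaved to acetyl-CoA for fatty acid synthesis, and malate, isocitrate and pyruvate shuttle between the compartments to supply NADPH and glycerol precursors.

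Values are log2 signals after robust multi-array averaging (RMA), so that a difference of 1 is a 2-fold change. They compare 1 gene between arrays, and levels of different genes cannot be ranked. Between 32.8% and 45.3% of genes per array lay above the brightest background probe set, and 31 to 33 of the 34 genes did. *Me3*, a mitochondrial malic enzyme, was not above background on any array, and *Pdp2* was not at D2. The mean over 11 white adipocyte markers was 15.53 to 16.00 at D9, and all 11 were above background on each D9 array. At D2 it was 7.58, 11.52 and 11.10 in Ctrl-siRNA cells and 7.00, 10.27 and 8.31 in Paral1-siRNA cells of experiments 1, 2 and 3. The mean over 7 markers of dividing cells was 8.68 to 10.80 at D2 and 5.80 to 7.14 at D9. No endothelial marker was above background on any array. The D9 Paral1-siRNA array of experiment 5 held *Ucp1* at 10.65, against 4.12 to 4.45 on the other D9 arrays, and *Lyz2* at 7.12. Experiment 1 stood apart at D2: its median difference from experiments 2 and 3 over the 34 genes was -0.68 in Ctrl-siRNA and -0.35 in Paral1-siRNA cells, against 0.21 and 0.14 over all genes. In bulk RNA, fewer cells of a type and less RNA per cell cannot be told apart.

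Promoter stretches are shown for the citrate carrier and for enzymes of citrate and isocitrate, whose levels are described below, in the strand of the gene and with a CCAAT box (CCAAT, or ATTGG on the other strand) or an E-box (CACGTG) in capitals. They are RefSeq sequences of build GRCm38.p6 from the 250 bases before an annotated start.
*Slc25a1*, E-box, chr16:17928423-17928469, minus strand: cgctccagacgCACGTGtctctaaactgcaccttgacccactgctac
*Slc25a1*, CCAAT box, chr16:17928310-17928374, minus strand: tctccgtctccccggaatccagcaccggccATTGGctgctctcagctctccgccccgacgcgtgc
*Cs*, CCAAT box, chr10:128337642-128337706, plus strand: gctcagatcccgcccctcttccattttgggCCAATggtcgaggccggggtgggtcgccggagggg
*Idh1*, CCAAT box, chr1:65186596-65186660, minus strand: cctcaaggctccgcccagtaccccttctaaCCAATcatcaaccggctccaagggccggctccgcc
*Idh2*, CCAAT box, chr7:80115360-80115424, minus strand: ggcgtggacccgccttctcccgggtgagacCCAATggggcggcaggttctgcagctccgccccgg

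Promoters were matched for 32 of the 35 genes. On both strands, the CCAAT box was found in 19 of the 32, against 37.5% of all genes with a promoter entry. The E-box was in 6 (*Ogdh*, *Pcx*, *Pdk2*, *Pdp2*, *Pdpr* and *Slc25a1*), against 6.86%. The NRF1 core GCGCATGC was in 1 (*Ogdh*), against 2.56%, and the estrogen-related receptor element TCAAGGTCA in 0, against 0.422%. The stretches of *Idh1* and *Idh2* both hold a CCAAT box, and these genes went in opposite directions between the days. Matches describe the letters of these windows only.

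D9 was compared with D2 to see how the pathway differed between early and late differentiation. In Ctrl-siRNA cells 25 of the 34 genes rose (limma, adjusted p under 0.05) and 2 fell, where 14.9% of all genes rose and 26.1% fell. In Paral1-siRNA cells 28 rose and 2 fell, where 14.5% of all genes rose and 25.3% fell. The median difference over the 34 genes was 1.95 in Ctrl-siRNA and 2.08 in Paral1-siRNA cells, against -0.19 and -0.16 over all genes. The D9 arrays did not overlap the D2 arrays in 27 genes that were higher and 2 that were lower in Ctrl-siRNA cells (18.4% and 35.8% of all genes), and in 28 and 2 in Paral1-siRNA cells (18.3% and 35.9%). The smallest p that an exact two-sided permutation test of 3 against 3 arrays allows is 0.1. Without experiment 1 the medians were 1.66 and 1.97. Both siRNA groups came from the same experiments, so that their agreement is not separate evidence. White adipocyte and dividing cell markers moved with the day, as given above. Of 7 brown adipocyte markers, 0 were above background on each D2 array and 3 to 5 on each D9 array. Of the preadipocyte and fibroblast markers in Ctrl-siRNA cells, *Fn1* fell by 2.97 and *Acta2* rose by 3.19, and the others did not pass. The part of all these markers in the differences between the days was not tested.

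**Figure D1:**
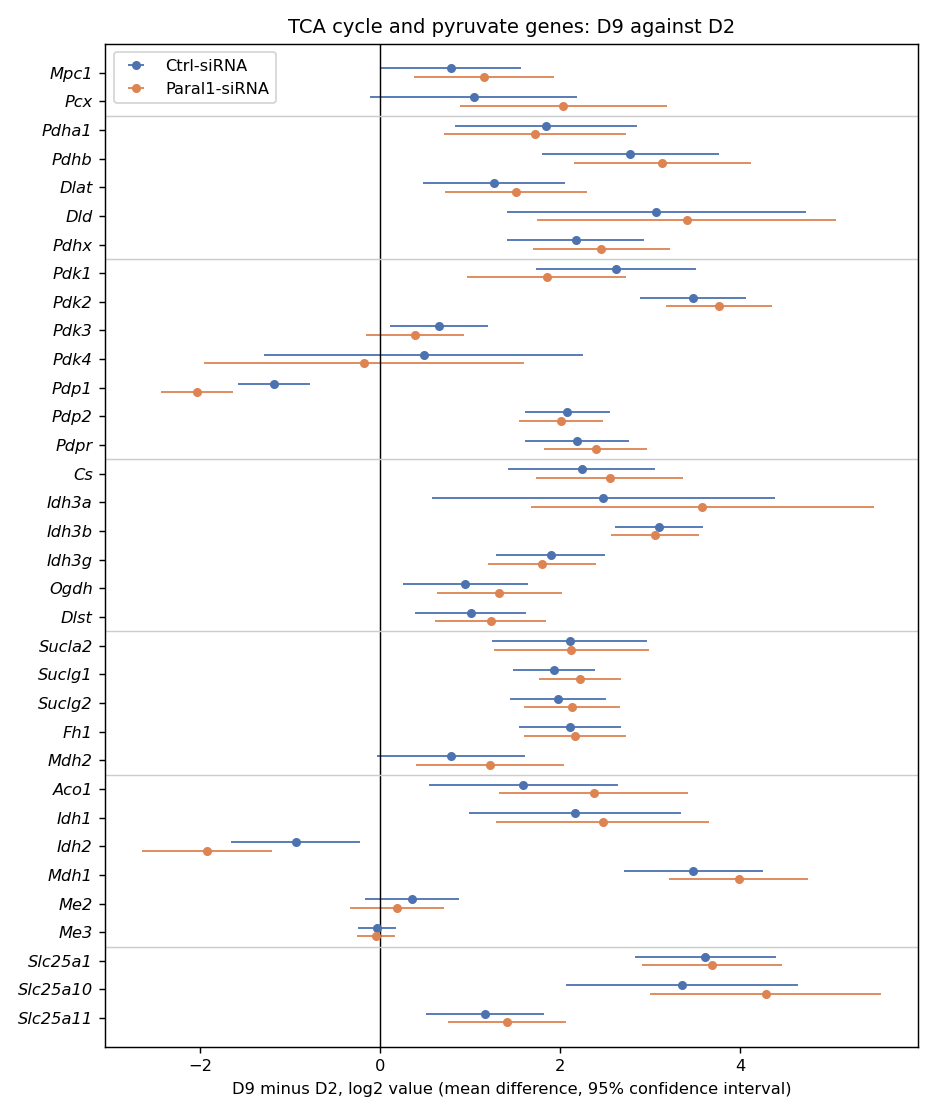
Mean difference between D9 and D2 (log2, horizontal axis) for 34 genes, with 95% confidence intervals from the fit, in Ctrl-siRNA (blue) and Paral1-siRNA (orange) cells (n = 3 arrays per group). Grey lines separate the groups of genes by role. Most genes lie to the right of 0, and *Pdp1* and *Idh2* lie to the left in both siRNA groups; *Pdp2* at D2 and *Me3* were not above background.

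The carriers that exchange citrate and dicarboxylates across the inner membrane rose. *Slc25a1*, the citrate carrier, was 9.72, 9.80 and 9.29 on the D2 Ctrl-siRNA arrays and 12.96, 13.01 and 13.68 at D9. The D9 values were all above the D2 values, a 12.2-fold rise (log2 3.61 ± 0.35 SE, n = 3, adjusted p = 3.25e-05), and 12.9-fold in Paral1-siRNA cells. *Slc25a10*, the dicarboxylate carrier, was 7.35, 9.68 and 8.91 at D2 and 11.85, 11.52 and 12.62 at D9. This gene rose by 3.35 ± 0.58 in Ctrl-siRNA (adjusted p = 0.00126) and by 4.28 ± 0.58 in Paral1-siRNA cells (adjusted p = 0.000288). *Slc25a11*, the oxoglutarate carrier, rose by 1.17 and 1.41, the smallest change of the 3 carriers. Its Ctrl-siRNA call was lost after quantile normalization (0.84, adjusted p = 0.0651) and its Paral1-siRNA call with the methods' t-test (adjusted p = 0.0663).

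All 5 subunit genes of the pyruvate dehydrogenase complex rose in both siRNA groups. *Dld*, the dihydrolipoamide dehydrogenase that this complex shares with the oxoglutarate dehydrogenase complex, was 10.91, 13.64 and 13.13 on the D2 and 15.76, 15.15 and 15.96 on the D9 arrays of Ctrl-siRNA cells. Experiment 1 was the lowest D2 array, and the rise was 3.06 ± 0.75 (adjusted p = 0.0085). *Pdhb*, which encodes the beta subunit of the E1 component, was 12.25, 13.75 and 13.14 at D2 and 15.76, 15.39 and 16.32 at D9, a rise of 2.78 ± 0.44 (adjusted p = 0.000778). *Pdhx*, *Pdha1* and *Dlat* rose by 2.17, 1.84 and 1.27. With the methods' t-test after Benjamini-Hochberg adjustment, *Pdha1* and *Dld* did not pass in Ctrl-siRNA (adjusted p = 0.0828 and 0.0752) or in Paral1-siRNA cells (adjusted p = 0.0691 and 0.0542), and *Dlat* did not in Ctrl-siRNA cells (adjusted p = 0.112, and 0.0562 with limma after quantile normalization).

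The regulators of this complex did not move together. Pyruvate dehydrogenase kinases inactivate it by phosphorylation, and phosphatases reverse this. *Pdk2* was 7.26, 7.12 and 6.49 at D2 and 10.93, 10.34 and 10.03 at D9 in Ctrl-siRNA cells, an 11.1-fold rise (3.47 ± 0.26, adjusted p = 5.77e-06). *Pdk1* rose by 2.62 ± 0.40 (adjusted p = 0.000579), from 7.45, 7.19 and 7.25 to 9.43, 10.16 and 10.15. *Pdk4* was 12.60, 9.43 and 10.57 at D2 and 11.16, 11.87 and 11.02 at D9, so that the days overlapped and the difference did not pass (0.48, 95% interval -1.29 to 2.26, adjusted p = 0.651). *Pdk3* differed by 0.65 (adjusted p = 0.0546).

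Among the phosphatases, *Pdp1* and *Pdp2* changed in opposite directions. *Pdp1* was 10.41, 10.26 and 10.36 at D2 and 9.54, 8.88 and 9.09 at D9 in Ctrl-siRNA cells, a 2.26-fold fall (log2 -1.17 ± 0.18, adjusted p = 0.000613). In Paral1-siRNA cells it was 10.93, 11.23 and 11.20 at D2 and 9.36, 8.87 and 9.05 at D9, a 4.07-fold fall (log2 -2.03 ± 0.18, adjusted p = 1.83e-05). *Pdp2* was at background at D2, and was at least 1.9-fold higher at D9 in Ctrl-siRNA (adjusted p = 4.35e-05) and at least 2.32-fold higher in Paral1-siRNA cells (adjusted p = 5.7e-05), the dim group being set to the lowest level above background. *Pdpr*, the regulatory subunit of the phosphatase, rose by 2.18 and 2.39.

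Pyruvate entry and carboxylation passed in 1 siRNA group only. *Mpc1* was 7.71, 8.94 and 8.41 at D2 and 9.02, 9.14 and 9.28 at D9 in Ctrl-siRNA cells, a difference of 0.79 ± 0.35 (adjusted p = 0.0935). It rose by 1.15 in Paral1-siRNA cells (adjusted p = 0.024), a call kept in 10 of 16 alternative settings. The call was lost, for one, without the D2 Paral1-siRNA array of experiment 1 (adjusted p = 0.0859) and with the methods' t-test (adjusted p = 0.118). *Pcx*, pyruvate carboxylase, was 12.94, 14.82 and 13.16 at D2 and 14.60, 14.40 and 15.03 at D9 in Ctrl-siRNA cells. Its difference was 1.04 ± 0.52 (adjusted p = 0.133), against 2.04 in Paral1-siRNA cells (adjusted p = 0.0108, and 0.0672 with the methods' t-test). The siRNA groups were not shown to differ in this: the difference of these differences was 0.36 for *Mpc1* and 1.00 for *Pcx*, each with adjusted p = 1.

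All 6 cycle enzyme genes from citrate to succinyl-CoA rose in both groups. *Cs*, citrate synthase, was 13.70, 14.76 and 14.34 at D2 and 16.27, 16.23 and 17.02 at D9 in Ctrl-siRNA cells, a 4.72-fold rise (2.24 ± 0.37, adjusted p = 0.000925). The subunits of NAD-dependent isocitrate dehydrogenase differed in spread. *Idh3b* was 13.33, 13.08 and 13.02 at D2 and 16.35, 15.92 and 16.45 at D9, a rise of 3.10 ± 0.22 (adjusted p = 3.67e-06). *Idh3a*, the catalytic subunit, was 9.30, 12.42 and 12.15 at D2 and 13.53, 13.41 and 14.38 at D9. Its rise of 2.48 ± 0.86 (adjusted p = 0.0407) was called in 6 of 16 alternative settings. It did not pass when any single D9 Ctrl-siRNA array was left out. Nor did it pass without the D2 Ctrl-siRNA array of experiment 1 (1.49, adjusted p = 0.138). *Idh3g* rose by 1.89. *Ogdh* and *Dlst*, components of the oxoglutarate dehydrogenase complex, rose by 0.95 and 1.01, and neither passed without the D2 Ctrl-siRNA array of experiment 1 (adjusted p = 0.118 and 0.0571). The Ctrl-siRNA call of *Ogdh* was kept in 7 of 16 alternative settings.

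From succinyl-CoA to oxaloacetate, 4 of 5 genes rose in Ctrl-siRNA cells and 5 in Paral1-siRNA cells. *Suclg1*, the shared alpha subunit of succinyl-CoA ligase, was 8.80, 9.51 and 9.36 at D2 and 11.07, 11.09 and 11.29 at D9 (1.93 ± 0.21, adjusted p = 5.79e-05). *Sucla2* and *Suclg2*, its alternative beta subunits, rose by 2.10 and 1.98, and *Fh1*, fumarase, by 2.11. *Mdh2*, mitochondrial malate dehydrogenase, was 13.75, 15.05 and 13.75 at D2 and 14.94, 14.75 and 15.22 at D9, so that the days overlapped (0.79 ± 0.37, adjusted p = 0.113). It rose by 1.22 in Paral1-siRNA cells (adjusted p = 0.024), a call kept in 10 of 16 alternative settings. The call was lost, for one, without the D2 Paral1-siRNA array of experiment 1 (adjusted p = 0.054) and after quantile normalization (adjusted p = 0.0627).

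The cytosolic and NADP-linked enzymes did not all move the same way. *Mdh1*, cytosolic malate dehydrogenase, was 10.37, 11.47 and 11.53 at D2 and 14.59, 14.34 and 14.87 at D9 in Ctrl-siRNA cells, an 11.1-fold rise (3.48 ± 0.35, adjusted p = 3.74e-05). *Idh1*, the cytosolic NADP-dependent isocitrate dehydrogenase, was 12.23, 14.03 and 13.82 at D2 and 15.54, 15.13 and 15.90 at D9, a rise of 2.17 ± 0.53 (adjusted p = 0.00877). *Idh2*, its mitochondrial counterpart, was 12.06, 10.79 and 11.07 at D2 and 10.26, 10.61 and 10.25 at D9. This gene fell by 0.93 in Ctrl-siRNA cells (adjusted p = 0.0405) and by 1.92 in Paral1-siRNA cells (adjusted p = 0.00111), where the values were 12.56, 11.55 and 12.25 at D2 and 10.03, 10.34 and 10.22 at D9. In Ctrl-siRNA cells the call was kept in 7 of 16 alternative settings. It was lost when any single D9 array was left out, and without the D2 array of experiment 1 (-0.56, adjusted p = 0.132). *Aco1*, cytosolic aconitase, rose by 1.59 and 2.37, the former not without that array (adjusted p = 0.0769). *Me2*, a malic enzyme, differed by 0.36 (adjusted p = 0.246) and 0.19 (adjusted p = 0.546).

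**Figure D2:**
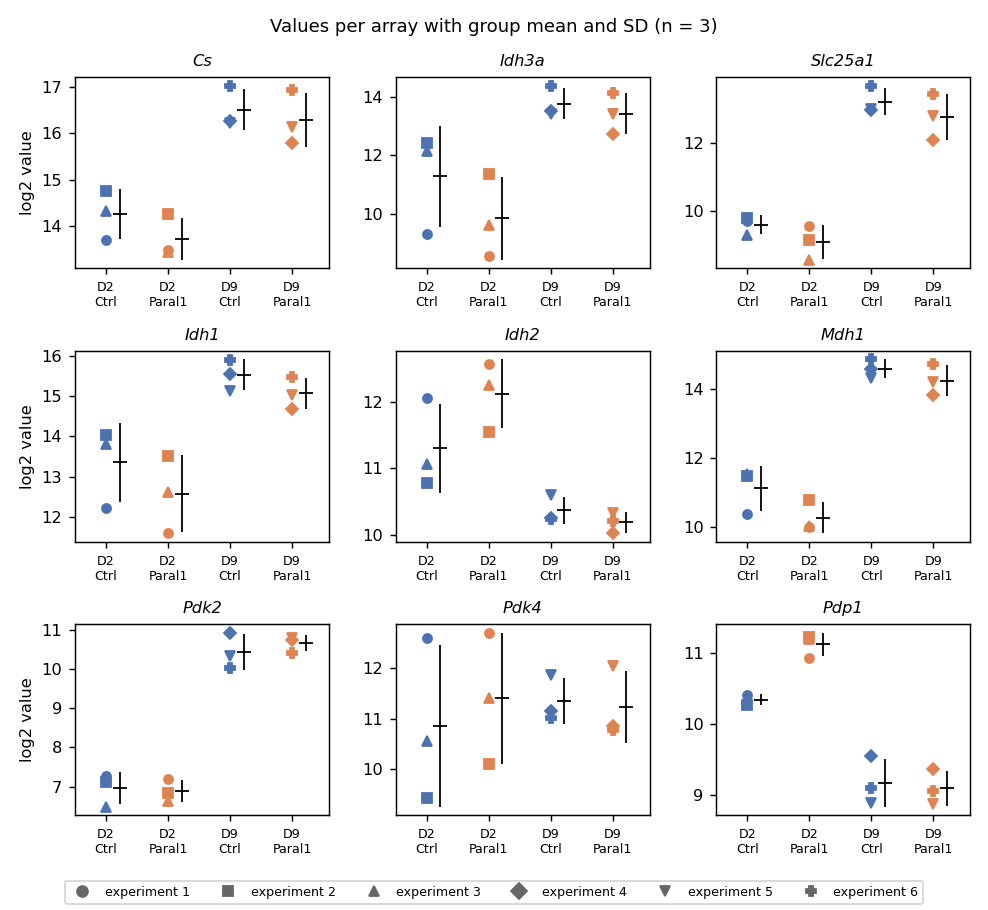
Log2 value of 9 genes on each of the 12 arrays (vertical axis) in the 4 groups (horizontal axis), blue for Ctrl-siRNA and orange for Paral1-siRNA, with a symbol for each experiment and the group mean ± SD in black (n = 3). *Slc25a1*, *Mdh1* and *Pdk2* are higher on every D9 array than on any D2 array, *Idh2* and *Pdp1* are lower, and the *Pdk4* arrays of the days overlap.

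Of 31 other genes of the pathway, listed for their role, 26 were measured, and 12 rose and 2 fell in each siRNA group. The 12 were not all the same: *Sdhaf3* was called in Ctrl-siRNA cells only and *Slc16a7* in Paral1-siRNA cells only. *Slc16a7* was not above background on any array. *Sdha*, the flavoprotein subunit of succinate dehydrogenase, rose by 3.31 in Ctrl-siRNA cells, and *Lias*, lipoate synthase, by 3.37. *Me1*, the cytosolic malic enzyme, rose by 4.42. *Pck1*, which feeds glyceroneogenesis, was not above background at D2 and was at least 91.5-fold higher at D9. *Got2*, mitochondrial aspartate aminotransferase, fell by 2.57 and *Slc25a12*, an aspartate-glutamate carrier, fell by 2.20. Both serve the malate-aspartate shuttle, as do *Mdh1* and *Slc25a11*, which rose, and 3 genes that did not pass in Ctrl-siRNA cells: *Mdh2* as given above, *Got1* (-0.62, adjusted p = 0.333) and *Slc25a13* (0.03, adjusted p = 0.88).

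Paral1-siRNA was then compared with Ctrl-siRNA at D2, to see whether the pathway differed when *Paral1* was targeted from the start of induction. No gene passed (limma, adjusted p; 0 of 34, 0% of all genes either way, also 0% with the experiment as a block), and the lowest adjusted p among the 34 was 1, or 0.339 with the block. In value, 28 of the 34 were lower in Paral1-siRNA cells, where 45.2% of all genes were, and the median was -0.38 against 0.02. Within experiments, 20 were lower in all 3 and 3 were higher in all 3 (14.5% and 18.8% of all genes). Without experiment 1, 27 were lower and the median was -0.48. At a fold change of 1.5, 10 were lower and 2 higher (1.26% and 1.12%). The groups did not overlap for 1 gene, which was higher, and for 0 that were lower (3.07% and 2.11%). At an unadjusted p under 0.05, 0 were lower and 1 higher (0.665% and 0.848%), and with the experiment as a block 18 were lower and 3 higher (6% and 5.61%). The mean over the 11 white adipocyte markers, given above, was lower with Paral1-siRNA in each D2 experiment, although *Adipoq*, *Cd36* and *Slc2a4* were higher in experiment 1 by 0.80, 0.22 and 0.04. On both arrays of experiment 1 these genes lay under the brightest background probe set, so that their signs there are uncertain. The mean over the 7 dividing cell markers was 8.82, 10.80 and 10.40 in Ctrl-siRNA and 8.68, 10.36 and 9.92 in Paral1-siRNA cells, lower in each experiment. That over 6 preadipocyte and fibroblast markers was 11.93, 10.79 and 11.70 against 12.05, 11.18 and 11.74, higher in each. Single markers of both lists went the other way. *Mki67*, *Top2a* and *Plk1* were higher in experiment 1 by 0.22, 0.01 and 0.09, and *Top2a* in experiment 3 by 0.33. *Thy1* differed by -0.21, -0.21 and -0.18, *Dlk1* by -0.27 in experiment 1, and *Fn1* by -0.17 in experiment 2. *Col1a1* and *Col3a1* differed by -0.10 and -0.13 in experiment 3. The part of these markers in the differences was not tested.

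The largest D2 difference in value was that of *Idh3a*. It was 9.30, 12.42 and 12.15 in Ctrl-siRNA cells and 8.54, 11.35 and 9.63 in Paral1-siRNA cells of experiments 1, 2 and 3. Each experiment was lower with Paral1-siRNA, but the groups overlapped (log2 -1.45 ± 1.04 SE, or ± 0.35 with the block, unadjusted p = 0.209 and 0.00771 with the block, adjusted p = 1 and 0.342). *Pcx* was 12.94, 14.82 and 13.16 against 12.66, 13.15 and 11.56, with larger differences in experiments 2 and 3 than in experiment 1 (mean -1.19 ± 0.61, adjusted p = 1). *Slc25a10* was 7.35, 9.68 and 8.91 against 7.26, 8.30 and 7.11, with the same pattern (-1.09 ± 0.63, adjusted p = 1). *Mdh1* was 10.37, 11.47 and 11.53 against 10.00, 10.79 and 10.02, lower in each experiment (-0.85 ± 0.38, adjusted p = 1). For *Pcx*, *Slc25a10* and *Mdh1* the errors and adjusted p are from the fit without the block. With the block these genes had an unadjusted p under 0.05, and none passed after adjustment. The pyruvate dehydrogenase subunits had differences of -0.63 to -0.04.

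The 3 genes higher with Paral1-siRNA in each D2 experiment were *Pdp1*, *Idh2* and *Pdk4*. *Pdp1* was 10.41, 10.26 and 10.36 in Ctrl-siRNA cells and 10.93, 11.23 and 11.20 in Paral1-siRNA cells. It was the gene whose groups did not overlap (0.77 ± 0.13, unadjusted p = 0.000947, adjusted p = 1). *Idh2* was 12.06, 10.79 and 11.07 against 12.56, 11.55 and 12.25, with overlapping groups (0.81 ± 0.40, adjusted p = 1). *Pdk4* was 12.60, 9.43 and 10.57 against 12.70, 10.10 and 11.42 (0.54 ± 0.96, adjusted p = 1). These errors and p-values are from the limma fit without the block, and so include the spread between experiments. With the block *Pdp1*, *Idh2* and *Pdk4* had an unadjusted p under 0.05, and none passed after adjustment.

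At D9, cells already differentiated received the siRNA. No gene passed (limma, adjusted p; 0 of 34, 0% of all genes either way, with or without the block), and the lowest adjusted p was 1, or 0.676 with the block. In value, 31 of the 34 were lower in Paral1-siRNA cells, where 45.5% of all genes were, with a median of -0.18 against 0.02. Within experiments, 17 were lower in all 3 and 0 higher in all 3 (13% and 16.5%). At a fold change of 1.5, 0 were lower and 0 higher (0.283% and 0.166%). The groups did not overlap for *Suclg1*, which was lower, and for 0 genes that were higher (2.5% and 4.65%). At an unadjusted p under 0.05, 0 were lower and 0 higher (1.11% and 1.46%), and with the block 4 were lower and 0 higher (3.71% and 3.17%). The mean over the 7 dividing cell markers was 5.91, 5.80 and 6.71 in Ctrl-siRNA and 6.16, 5.99 and 7.14 in Paral1-siRNA cells, higher in each D9 experiment. Only 4 or 5 of the 7 were above background per D9 array. *Aurkb* and *Bub1* were not on any, and *Plk1* was on 1 Ctrl-siRNA array only. *Cdk1* differed by -0.12, -0.02 and 0.26. The mean of the preadipocyte and fibroblast list was 11.20, 11.53 and 11.66 against 11.37, 11.46 and 11.67, and its genes did not move together. *Acta2* was higher by 0.36, 1.48 and 0.55 and *Fn1* by 0.34, 0.19 and 0.09, while *Thy1* differed by -0.15, -0.51 and -0.07. *Col1a1* differed by 0.10, -0.58 and -0.41, *Col3a1* by 0.14, -0.56 and -0.21, and *Dlk1* by 0.24, -0.44 and 0.12. The part of these markers in the D9 differences was not tested.

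The 4 genes lower at D9 at an unadjusted p under 0.05 with the block were *Dlat*, *Idh1*, *Pdhx* and *Slc25a1*. The errors and adjusted p that follow are from the fit without the block. With the block, the lowest adjusted p among the 34 genes was 0.676. *Pdhx* was 10.67, 10.74 and 11.22 in Ctrl-siRNA cells and 10.30, 10.58 and 11.01 in Paral1-siRNA cells of experiments 4, 5 and 6. *Idh1* was 15.54, 15.13 and 15.90 in Ctrl-siRNA cells and 14.69, 15.03 and 15.47 in Paral1-siRNA cells of experiments 4, 5 and 6 (-0.46 ± 0.26, adjusted p = 1). *Slc25a1* was 12.96, 13.01 and 13.68 against 12.08, 12.80 and 13.43 (-0.44 ± 0.37, adjusted p = 1). *Dlat*, the acetyltransferase of the pyruvate dehydrogenase complex, was 9.94, 9.88 and 10.15 against 9.32, 9.57 and 9.98 (-0.36 ± 0.18, adjusted p = 1). In each of these the largest difference was in experiment 4. *Suclg1* was 11.07, 11.09 and 11.29 against 10.64, 10.99 and 11.07 (-0.25 ± 0.14, exact permutation p = 0.1, the smallest possible).

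**Figure D3:**
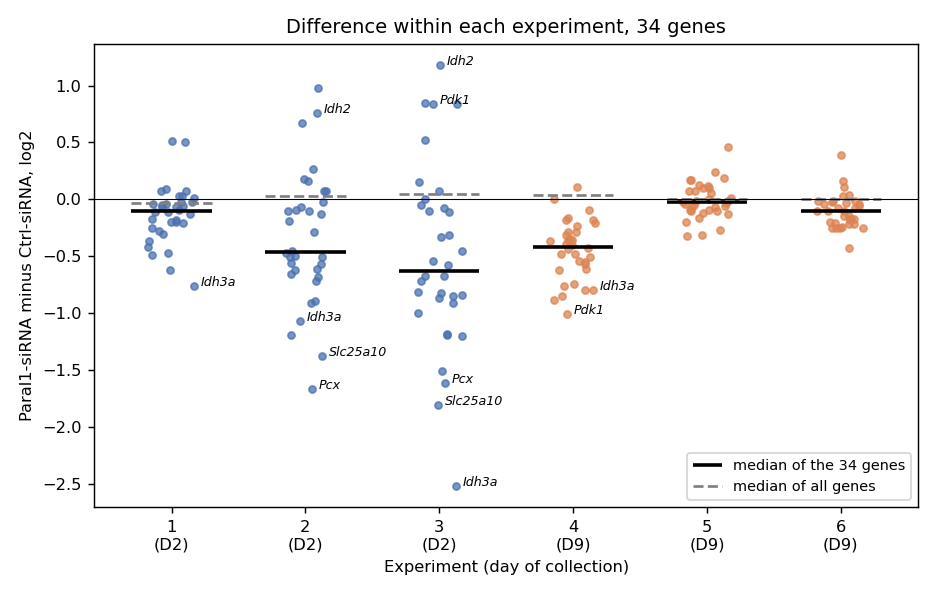
Paral1-siRNA minus Ctrl-siRNA (log2, vertical axis) within each experiment (horizontal axis, D2 in blue and D9 in orange), with 1 point per gene for 34 genes. Black lines are the medians of the 34 genes, -0.10, -0.46, -0.63, -0.42, -0.03 and -0.10 in experiments 1 to 6, and dashed grey lines the medians of all genes, -0.03 to 0.05. Experiments 2, 3 and 4 lie lowest.

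The size of the difference varied between experiments. The medians over the 34 genes were -0.10, -0.46 and -0.63 in experiments 1, 2 and 3, and -0.42, -0.03 and -0.10 in experiments 4, 5 and 6. The number of lower genes was 26, 26 and 26, then 33, 20 and 29. Without both arrays of experiment 4, a choice made after seeing the data, the D9 median was -0.06 and 28 genes were lower. Without experiment 5 it was -0.28. Without the Paral1-siRNA array of experiment 4 alone the D9 median was -0.01 and 20 were lower. White adipocyte markers of experiment 4 averaged 15.77 in Ctrl-siRNA and 15.55 in Paral1-siRNA cells. They went the other way in experiment 5 (15.53 and 15.63) and in experiment 6 (15.93 and 16.00).

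Over the 6 experiments, with the experiment as a block, 0 of the 34 genes passed in either direction (limma, adjusted p; 0.00332% of all genes lower, 0% higher), and the lowest adjusted p was 0.234, for *Dlat* and *Idh1*. This fit uses the same arrays as the comparisons within days and is not separate evidence. *Idh1* was lower by 0.62, 0.51, 1.18, 0.85, 0.10 and 0.43 in experiments 1 to 6, a mean log2 difference of -0.62 ± 0.13, and *Dlat* had a mean of -0.49 ± 0.10. In all 6 experiments 13 genes were lower and 0 higher (3.76% and 3.69% of all genes). The 13 were *Cs*, *Dlat*, *Dlst*, *Fh1*, *Idh1*, *Idh3a*, *Mdh1*, *Mpc1*, *Ogdh*, *Pdhx*, *Pdpr*, *Slc25a1* and *Slc25a10*. At an unadjusted p under 0.05, 19 were lower and 0 higher (6.65% and 5.18%).

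The siRNA difference at D9 was set against that at D2. No gene passed (limma, adjusted p; 0 of 34, 0% of all genes either way, also with the block). At an unadjusted p under 0.05, 1 gene was lower and 0 higher (0.545% and 0.532%), and with the block 4 were lower and 4 higher (3.8% and 3.48%). *Pdp1* was lower in both counts (-0.85 ± 0.26, unadjusted p = 0.007). With the block, *Idh2*, *Pdk1* and *Pdk4* were the other lower genes, and *Aco1*, *Idh3a*, *Pcx* and *Slc25a10* the higher ones.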

How the data were processed

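Scans of 12 Affymetrix Mouse Transcriptome Arrays were corrected for GC content and transformed to a common signal space by the authors in Expression Console 1.4.1. The log2 values that they deposited had then gone through RMA, for which the methods (Partek Genomics Suite) and the labels (Expression Console) name different software. The values were used as deposited. Of 65770 transcript clusters, 30473 had 1 symbol, 2176 several and 33121 none; 330 symbols were updated, and the brightest probe set stood for each of the 306 genes with several. Comparisons used limma 3.58.1 in R 4.3.3 (lmFit, eBayes) with Benjamini-Hochberg adjustment over 30077 genes, after a test on simulated data. Each day was fitted alone without a block. The paper's general statistics section names a two-tailed t-test or analysis of variance and no pairing, and its microarray section names no test for single genes. What is called the methods' t-test here is an unpaired two-tailed t-test, applied to the arrays in this text. D9 against D2 and its difference between siRNAs used all 12 arrays. No filter on dim genes was applied. The labels' experiment numbers pair the arrays: deviations from group means correlated at 0.706 to 0.862 for equal numbers and -0.791 to 0.409 for different ones, over 15102 genes. No source says that arrays came from separate cultures beyond these numbers, so a p-value measures only how much the arrays themselves spread, and their number limits the precision. All 35 genes could be named, and of other pathway genes those with the largest changes were named first. The single markers of the cell lists were named after their values were seen: *Ucp1*, *Lyz2*, *Adipoq*, *Cd36*, *Slc2a4*, *Acta2*, *Mki67*, *Top2a*, *Plk1*, *Cdk1*, *Aurkb*, *Bub1*, *Thy1*, *Dlk1*, *Fn1*, *Col1a1* and *Col3a1*. The members and lists were chosen with earlier results of these data known. The alternatives were the experiment block, the arrays in the fit, renormalization, dim genes, the probe set, the prior, the methods' t-test and left-out arrays. Figures used matplotlib 3.10.9.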

Additional observations from a re-analysis of the deposited data

Results flagged for a closer look

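For 4 genes the siRNA difference had 1 sign in all D2 experiments and the opposite sign in all D9 experiments, as did 876 of all genes (2.91%). They were 2 of the 34 genes and 2 of the 26 other pathway genes measured. Their smallest D9 differences were -0.01 for *Pdp1*, -0.02 for *Idh2*, -0.07 for *Sdhaf3* and -0.01 for *Lipt2*, so that these signs are uncertain. *Pdp1* was higher with Paral1-siRNA at D2 by 0.51, 0.98 and 0.84 and differed at D9 by -0.18, -0.01 and -0.04, with a difference between the days of -0.85 (limma, adjusted p = 1, with the experiment block 0.537). *Idh2* was higher by 0.50, 0.76 and 1.18 at D2 and differed at D9 by -0.23, -0.27 and -0.02, a difference between the days of -0.99 (adjusted p = 1, with the block 0.537). *Sdhaf3*, an assembly factor of succinate dehydrogenase, differed by -0.40 (adjusted p = 1, with the block 0.615). *Lipt2*, a lipoyl transferase, differed by -0.35 (adjusted p = 1, with the block 0.698). No difference between the days passed the adjusted threshold.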

How the results depend on the processing

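No setting called a gene for any siRNA comparison, and no direction of a called gene was turned. With the experiment as a fixed replicate block, the genes at an unadjusted p under 0.05 were 18 lower and 3 higher at D2, 4 lower at D9, and 4 lower and 4 higher for the difference between days, and with a random block the last were 2 and 1. At D2 they were 3 lower and 2 higher with all 12 arrays in 1 fit, 1 lower after quantile normalization, and 4 lower and 2 higher without experiment 1. For the difference between days, 2 were lower with array medians subtracted or without experiment 1, and 7 genes had a lower value without experiment 4 (11 before), a setting added after the data were seen.

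Called lower at D9 against D2 in Ctrl-siRNA cells was 1 gene, with *Idh2* lost, with only the 6 arrays compared, with the methods' t-test, without experiment 1 and without experiment 5. The adjusted p of *Idh2* ranged from 0.0135 to 0.164. The median there was 1.63 after quantile normalization. The methods' t-test called 18 genes higher in Paral1-siRNA cells and 17 in Ctrl-siRNA cells, where *Pdha1*, *Dlat*, *Dld*, *Idh3a*, *Ogdh*, *Dlst*, *Aco1* and *Idh1* were lost besides *Idh2*. Of the values of called genes, 384 of 432 in Ctrl-siRNA and 459 of 480 in Paral1-siRNA cells stayed past the threshold. Over all genes, the share of calls that were higher was 36.3% in Ctrl-siRNA and 36.5% in Paral1-siRNA cells, and 46.5% and 47.7% with array medians subtracted. The median of all genes moved from -0.19 and -0.16 to -0.06 and -0.04.

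Leaving out 1 array at a time, the D2 median was -0.55 to -0.19 with 23 to 27 genes lower, and at an unadjusted p under 0.05, 0 to 9 lower (9 without the Ctrl-siRNA array of experiment 1) and 1 to 2 higher. The D9 median was -0.39 to -0.01 with 20 to 31 lower, and 0 to 3 lower and 0 to 1 higher at that p. Over 6 experiments the median was -0.35 to -0.24. The difference between days had a median of 0.00 to 0.42, 6 to 16 genes with a lower value, and 0 to 1 higher and 1 to 2 lower at that p. D9 against D2 called 20 to 29 higher and 1 to 2 lower in Ctrl-siRNA cells (median 1.66 to 2.10), and 25 to 29 and 2 in Paral1-siRNA cells (median 1.86 to 2.31). The calls lost without at least 1 single array were those of *Idh2*, *Idh3a*, *Ogdh*, *Dlst*, *Aco1* and *Dlat* in Ctrl-siRNA cells, and of *Mpc1*, *Mdh2* and *Pdha1* in Paral1-siRNA cells. The cause of these changes was not tested. *Me3*, and *Pdp2* at D2, lay at background.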
